A study of Mus musculus with 6 samples.

Results

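Transcript levels of 8 genes of the TXNIP and MondoA/ChREBP glucose-sensing pathway were examined in RNA sequencing data of cells sorted as peritoneal ECs from 3 saline mice and 3 PD mice. The genes were chosen by name and matched by symbol, with 1 row each among the 22183 genes of the deposited table. They comprise Txnip and its relatives Arrdc4 and Arrdc3, the transcription factor genes Mlxip, Mlxipl and Mlx, and the thioredoxin genes Txn1 and Txn2. All mice were wild type, and the study's methods describe adult male C57BL/6J animals. Saline mice received daily intraperitoneal saline for 6 weeks, and PD mice received glucose-based PD fluid by the same route for the same time. The labels describe magnetic sorting of CD31+ cells, whereas the supplementary methods describe flow sorting of CD31+ CD45- cells from digested mesentery. Total counts per library ran from 21973426 to 26374292.

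TXNIP is an alpha-arrestin that binds reduced thioredoxin and blocks its activity, and it also draws glucose transporters from the cell surface. Its transcription is driven by MondoA (encoded by Mlxip) and ChREBP (encoded by Mlxipl), which enter the nucleus when glucose-6-phosphate builds up and bind DNA together with their shared partner Mlx. ARRDC4 is the closest relative of TXNIP and answers to the same factors. In endothelium, TXNIP is known as a link between high glucose, oxidative stress and the NLRP3 inflammasome.

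MondoA and ChREBP bind with Mlx to paired E-box-like sequences, so the promoters of the genes were searched for them. In RefSeq promoters on GRCm38.p6, which run from 250 bases before to 50 bases after each start, all 8 genes had an entry. A pair of CACGNG sequences in the same orientation with 5 bases between them (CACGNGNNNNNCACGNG, both strands) was present in 16 of 32851 promoters (0.0487%), and among the 8 genes in that of Txnip. The plain E-box CACGTG, which reads the same on both strands, was present in 7.15% of promoters. Among the 8 genes it was found before Arrdc4, Mlx and the upstream start of Mlxipl. The 250 bases before these starts are shown for the genes with the largest increases, with matches in capitals.
Txnip (chr3:96557707-96557956, plus strand): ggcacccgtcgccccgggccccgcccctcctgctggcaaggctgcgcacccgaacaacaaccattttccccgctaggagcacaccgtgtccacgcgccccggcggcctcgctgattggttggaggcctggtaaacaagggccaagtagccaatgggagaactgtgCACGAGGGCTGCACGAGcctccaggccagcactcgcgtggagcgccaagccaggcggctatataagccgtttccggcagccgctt
Arrdc4 (chr7:68749239-68749488, minus strand): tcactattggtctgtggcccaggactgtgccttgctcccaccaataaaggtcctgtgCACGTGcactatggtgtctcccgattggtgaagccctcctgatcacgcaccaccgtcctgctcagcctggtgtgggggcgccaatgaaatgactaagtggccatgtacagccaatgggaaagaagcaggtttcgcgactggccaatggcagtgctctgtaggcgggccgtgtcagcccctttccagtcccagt
Mlxipl, upstream start (chr5:135089640-135089889, plus strand): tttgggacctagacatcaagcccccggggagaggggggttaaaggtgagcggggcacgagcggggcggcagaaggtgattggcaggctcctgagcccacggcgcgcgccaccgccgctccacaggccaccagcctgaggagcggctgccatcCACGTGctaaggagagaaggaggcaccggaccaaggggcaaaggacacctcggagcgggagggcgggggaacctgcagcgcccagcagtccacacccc
Mlxipl, downstream start (chr5:135106641-135106890, plus strand): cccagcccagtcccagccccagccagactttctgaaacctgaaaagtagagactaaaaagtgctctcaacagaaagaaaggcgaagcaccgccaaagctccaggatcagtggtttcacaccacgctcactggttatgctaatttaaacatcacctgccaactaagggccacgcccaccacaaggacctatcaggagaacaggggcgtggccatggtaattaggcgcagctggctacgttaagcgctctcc
The pair in the Txnip promoter, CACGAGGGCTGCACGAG, began 85 bases before the start (chr3:96557872-96557888). The E-box before Arrdc4 began 193 bases upstream of its start, that before Mlx 40 bases and that before Mlxipl 98 bases. The window at the downstream Mlxipl start, 17001 bases away, held neither motif, and these letters were likewise not in the windows of Arrdc3, Mlxip, Txn1 and Txn2. These are matches of letters, pairs of other orientation or spacing were not searched, and no binding was measured.

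With FPKM values, which correct for gene length and allow levels of different genes to be set side by side, Txn2 was the most abundant of the 8 transcripts in saline mice at 163 ± 4.56 FPKM (SD, n = 3). Txn1 followed at 109 ± 4.79, ahead of Txnip at 78.5 ± 3.41 and Arrdc3 at 74.1 ± 4.24, whose ranges overlapped. Mlx at 34.7 ± 1.10, Mlxip at 25.3 ± 2.22 and Arrdc4 at 11.4 ± 0.559 FPKM came next without overlap, and Mlxipl was lowest at 0.0747 ± 0.0277 FPKM. In PD mice, Txnip at 133 ± 19.6 FPKM overlapped with Txn2 at 138 ± 3.58 and lay above Txn1 at 103 ± 7.49. Arrdc3 at 39.3 ± 2.10 then overlapped with Mlxip at 35.1 ± 5.66, which overlapped with Mlx at 31.3 ± 1.30 FPKM. Arrdc4 at 21.3 ± 0.580 and Mlxipl at 3.40 ± 0.456 FPKM remained the lowest of the 8 in PD mice.

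**Figure D1:**
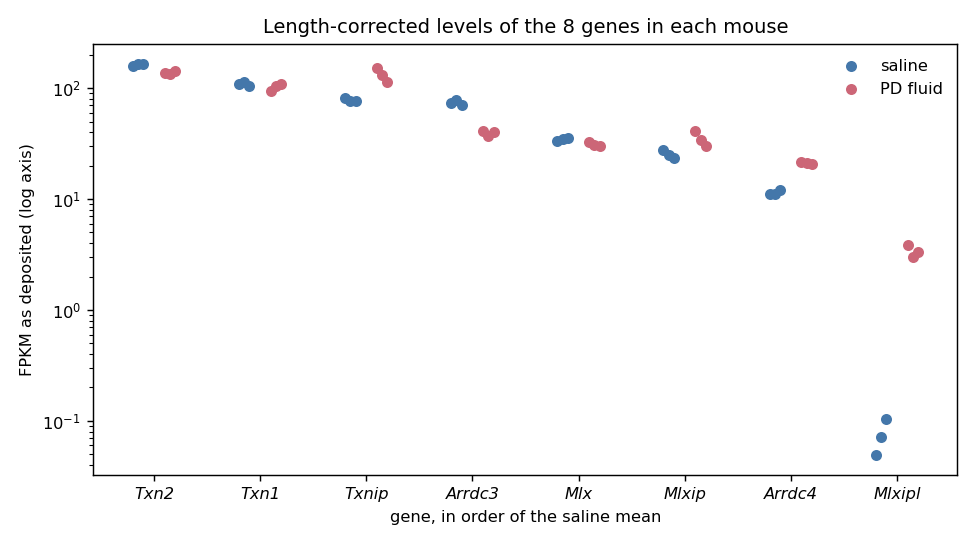
Deposited FPKM (log axis) of the 8 genes, ordered by the saline mean, with 1 point per mouse for 3 saline mice (blue) and 3 PD mice (red). Txnip lies below Txn1 in saline mice and overlaps with Txn2 in PD mice, and Mlxipl stood lowest in both groups, at 0.0747 FPKM in saline mice and 3.40 in PD mice.

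For changes between groups, levels are given as CPM (reads of a gene relative to the library total, with TMM scaling in edgeR), and a positive log2 fold change means a higher level in PD mice. All 8 genes passed the filter on low counts, as did 14005 genes in all. By edgeR's quasi-likelihood test at a Benjamini-Hochberg adjusted p under 0.05, Txnip, Arrdc4, Mlxip and Mlxipl were higher in PD mice, Arrdc3 and Txn2 were lower, and Mlx and Txn1 did not pass. Of all genes tested, 31.1% were higher, 27.8% lower and 58.9% called in either direction, and against this background 6 called genes of 8 does not set these genes apart. The CPM ranges of the groups did not overlap for 7 of the 8 genes, all but Txn1, against 65.6% of all genes. The median log2 fold change was 0.18 over the 8 genes and 0.017 over all genes.

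**Figure D2:**
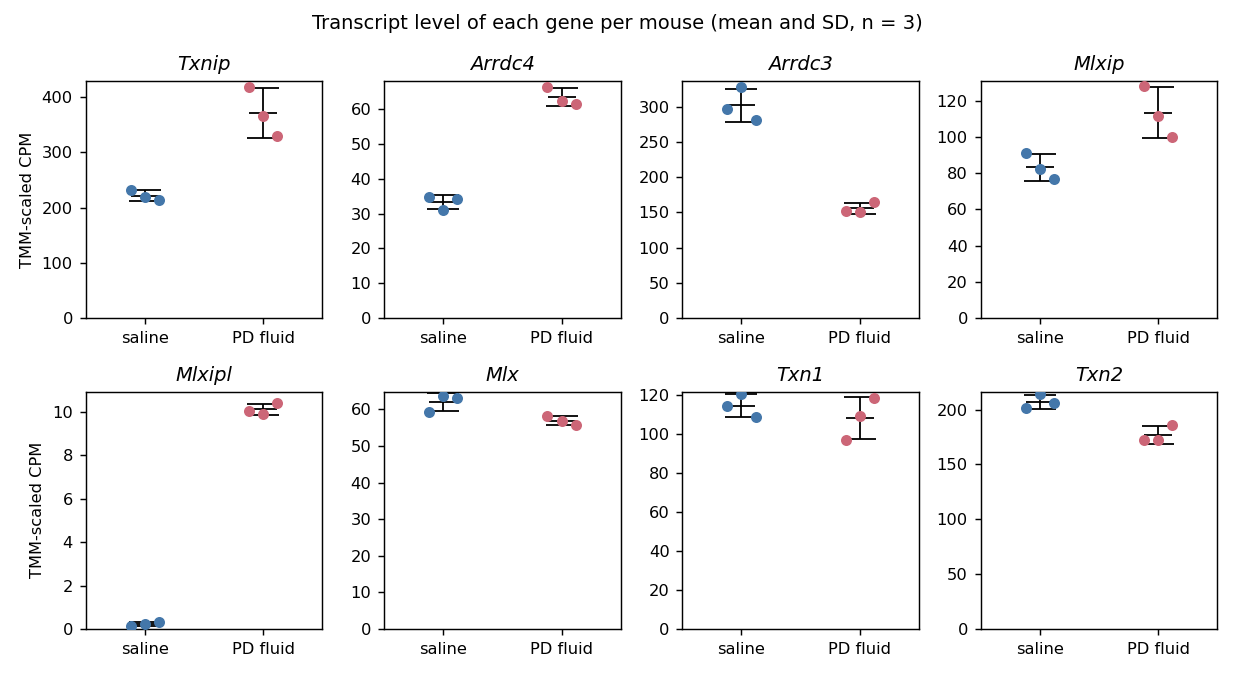
TMM-scaled CPM of each gene in each mouse (points), with the mean and SD of 3 saline mice (blue) and 3 PD mice (red); each axis starts at 0. The groups overlap only for Txn1, and the increases of Txnip, Arrdc4 and Mlxip do not hold when libraries are scaled to endothelial markers.

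The labelled cell type was checked with marker genes, and the libraries held abundant transcripts of other cell types. Of the 6 leukocyte markers, 5 were called lower in PD mice and 1 (Laptm5) higher. They summed to 9348 to 9849 CPM in saline mice and 6895 to 7097 CPM in PD mice. In both groups this lay above the sum of the endothelial markers. The 12 endothelial markers were detected in every library, and their summed CPM was 1241 to 1257 in saline mice and 2031 to 2154 in PD mice, with 11 of 12 called higher. The exception was Pecam1, which encodes CD31, at 469 ± 19.4 and 514 ± 7.85 CPM (SD, n = 3 each). Ptprc, which encodes the leukocyte antigen CD45, was at 2373 ± 127 CPM in the saline mice and at 1473 ± 63.6 CPM in the PD mice. Summed B cell markers were 5827 to 6104 CPM in saline mice and 2767 to 2803 CPM in PD mice (6 of 6 lower), whereas macrophage markers were 755 to 779 and 3167 to 3220 CPM (6 of 6 higher). Pancreatic acinar markers were 1.02 to 2.86 and 5632 to 6358 CPM (6 of 6 higher). In such bulk libraries, fewer cells of a type and less RNA per cell cannot be told apart.

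**Figure D3:**
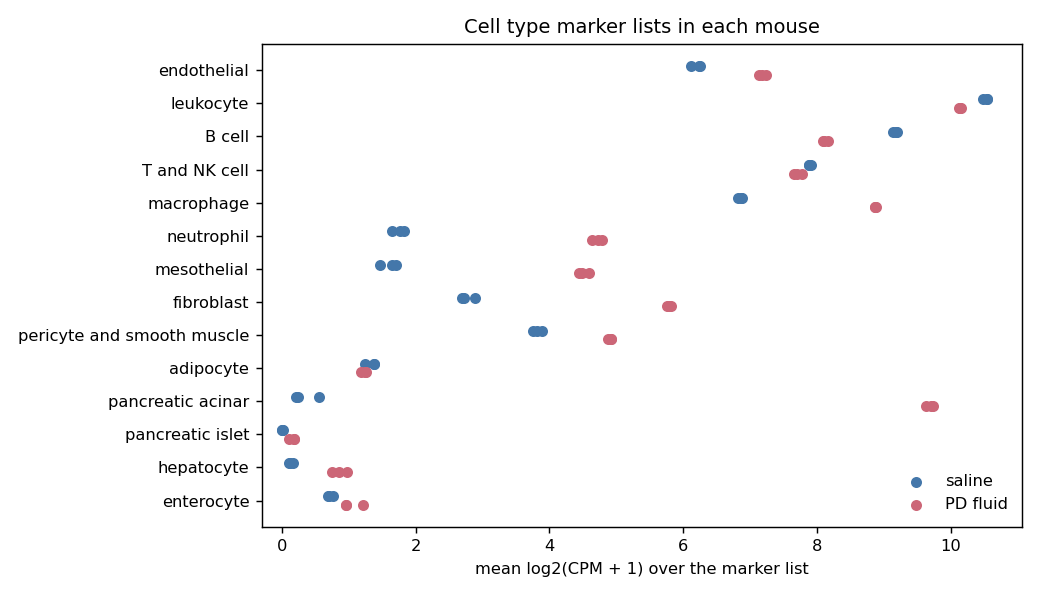
Mean log2(CPM + 1) over each of 14 cell type marker lists, with 1 point per mouse for 3 saline mice (blue) and 3 PD mice (red). Leukocyte, B cell and T and NK cell scores lie lower in PD mice, those of endothelial, macrophage, neutrophil, mesothelial, fibroblast, pericyte and smooth muscle, acinar, hepatocyte, islet and enterocyte lists lie higher, and adipocyte scores overlap.

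Because the endothelial markers differed between the groups, the libraries were also scaled to these 12 genes. Their own log2 fold changes under TMM scaling ran from 0.13 (Pecam1) to 1.65 (Tie1). The scaling takes their mean level as constant, which was not tested, and its adjusted p-values do not carry this spread. It moved the median log2 fold change of all genes by -0.99, and 8.15% of genes were then called higher and 72.5% lower. Of the 8 genes, 1 was then higher (Mlxipl, 4.40) and 6 were lower, and Arrdc4 did not pass (-0.065, adjusted p = 0.551 in edgeR's quasi-likelihood test). Txnip at -0.25 and Mlxip at -0.55 turned from higher to lower, and Mlx at -1.12 and Txn1 at -1.07 became called. Relative to the shift of all genes, the log2 differences were 0.74 for Txnip, 0.93 for Arrdc4, -0.96 for Arrdc3, 0.44 for Mlxip and 5.39 for Mlxipl. These lie near the TMM values by construction, since a change of scaling moves all genes by about the same amount. The directions given for these genes below are therefore those relative to the bulk of transcripts in each library.

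**Figure D4:**
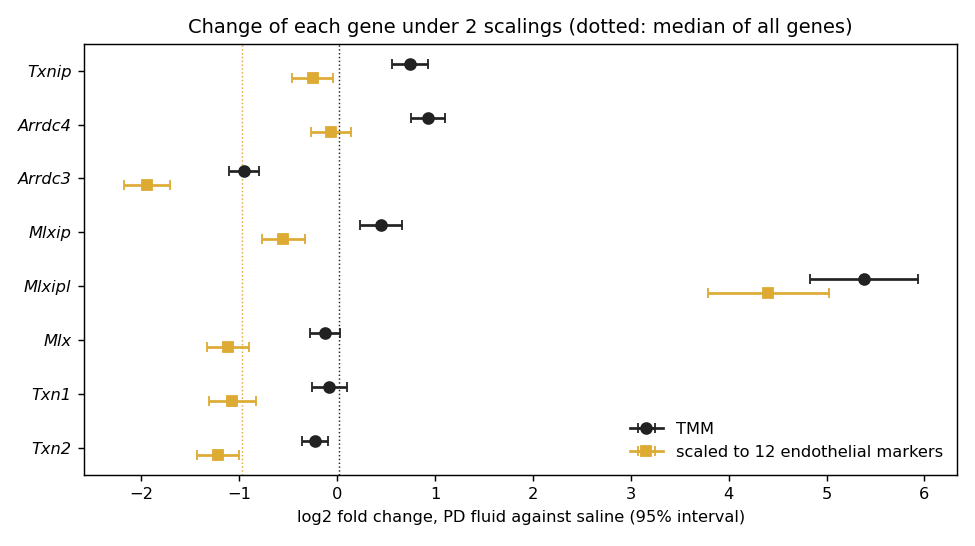
Log2 fold change of each gene (x axis, PD mice against saline mice, 3 per group) with its 95% interval under TMM scaling (black circles) and under scaling to 12 endothelial markers (yellow squares); dotted lines mark the median of all genes under each. Txnip, Arrdc4 and Mlxip lie above 0 under TMM (0.74, 0.92 and 0.44) and below 0 under endothelial scaling (-0.25, -0.065 and -0.55), while Mlxipl lies above 0 and Arrdc3 below 0 under both.

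Among the alpha-arrestins, Txnip (ENSMUSG00000038393, GRCm38 chr3:96557957-96561883, plus strand) was at 232, 219 and 213 CPM in the saline mice and 418, 365 and 329 CPM in the PD mice. Every PD mouse lay above every saline mouse. The means were 221 ± 9.60 and 371 ± 44.8 CPM (SD, n = 3), a log2 fold change of 0.74 (SE 0.08, 95% interval 0.56 to 0.93, adjusted p = 2.86e-05 in edgeR's quasi-likelihood test) under TMM scaling, against -0.25 under endothelial scaling. This change exceeded that of 78.4% of the genes tested. Leaving out any 1 mouse gave values from 0.65 to 0.83.

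Arrdc4 (ENSMUSG00000042659, chr7:68736995-68749241, minus strand), which encodes an adaptor that also acts on glucose uptake, was at 34.8, 31.0 and 34.3 CPM in saline mice. It was at 66.3, 62.3 and 61.6 CPM in PD mice, with no overlap. The log2 fold change was 0.92 (SE 0.08, 95% interval 0.75 to 1.10, edgeR adjusted p = 3.45e-06) under TMM scaling and -0.065 under endothelial scaling. The ratio of Txnip to Arrdc4 differed little between the groups. It was 6.66, 7.06 and 6.22 in saline mice and 6.31, 5.86 and 5.35 in PD mice on the CPM scale, with overlap and a mean log2 difference of -0.19.

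Arrdc3 (ENSMUSG00000074794, chr13:80883384-80896042, plus strand), an adaptor in the trafficking of membrane receptors such as the beta-adrenergic receptors, went the other way. It was at 296, 327 and 282 CPM in the saline mice and at 153, 151 and 165 CPM in the PD mice. All PD mice were lower, and the log2 fold change was -0.95 (SE 0.07, 95% interval -1.11 to -0.79, edgeR adjusted p = 1.11e-06) under TMM scaling and -1.95 under endothelial scaling. Only 2.36% of the genes tested had a lower value than Arrdc3 under TMM scaling. The B cell, leukocyte and macrophage markers given above moved between the same groups, and their part in the values of Txnip, Arrdc4 and Arrdc3 was not tested.

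Of the other 3 alpha-arrestin genes, 2 were tested and none was higher. Arrdc1, an adaptor for ubiquitin ligases of the NEDD4 family, was lower at 198 ± 12.8 and 157 ± 3.33 CPM (SD, n = 3), with a log2 fold change of -0.34 (SE 0.07, edgeR adjusted p = 0.00114). Arrdc2 did not pass the test (log2 fold change 0.12), and Arrdc5 had 0 counts in all 6 libraries. As a share of the summed FPKM of the 6 alpha-arrestins, which does not depend on the scaling of a library, Txnip made up 25.2 ± 0.849% in saline mice and 42.4 ± 2.76% in PD mice. Arrdc3 made up 23.9 ± 1.95% and 12.7 ± 1.12%, respectively. The ranges of both shares did not overlap between the groups. The part of the cell type markers given above in these shares was not tested.

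Of the transcription factors, Mlxipl (ChREBP, ENSMUSG00000005373, chr5:135089890-135138382, plus strand) changed most in size. It had 4, 5 and 8 counts in the saline mice and 273, 236 and 230 counts in the PD mice, or 0.239 ± 0.0879 and 10.1 ± 0.271 CPM (SD, n = 3). All PD mice lay far above all saline mice. The log2 fold change was 5.38 (SE 0.25, 95% interval 4.83 to 5.93, edgeR adjusted p = 2.37e-08), a 41.6-fold difference with an interval from 28.4 to 61.0. By size it ranked 79 from the top among the genes tested. The fold rests on 17 reads in saline mice in all, so its lower end is set by few counts.

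ChREBP is best known from liver, fat, intestine and pancreas, so markers of those tissues are given beside it. Acinar markers rose as described above, and hepatocyte markers were 0.430 to 0.663 CPM in saline mice and 5.16 to 8.43 CPM in PD mice in sum. Of the 5 hepatocyte markers, Apoa1 (1, 0 and 0 counts in saline mice, then 110, 79 and 113) and Ahsg (9, 10 and 13, then 78, 40 and 70) were called higher. Alb and Apoa2 had at most 4 counts in any library and Fgb had 0. Islet markers were 0 to 0.0391 and 0.461 to 0.883 CPM in sum, and none had enough reads to be tested. Gcg (0 in all saline mice, then 13, 3 and 7 counts) and Pcsk2 (1, 0 and 0, then 10, 8 and 11) did not overlap between the groups, Slc30a8 had at most 1 count, and Ins1, Ins2 and Iapp were at 0 counts in all 6 libraries. Adipocyte markers, at 9.15 to 11.3 and 8.14 to 9.23 CPM, had no gene called. Enterocyte markers were 7.24 to 7.87 and 6.59 to 8.74 CPM in sum, a range set mostly by Fabp1, which was lower at 7.14 and 4.83 CPM. Fabp2 (0 in all saline mice, then 22, 13 and 30 counts) and Sis (0, then 29, 17 and 25) were called higher, and Vil1 and Cdhr2 had too few reads to test. The part of acinar, hepatocyte, islet, enterocyte or other transcripts in the Mlxipl value was not tested. RefSeq lists 2 starts for Mlxipl, and the shorter ChREBP-beta form is known to begin at the upstream exon, but counts per gene do not separate them.

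Mlxip (MondoA, ENSMUSG00000038342, chr5:123394798-123457932, plus strand) was at 91.3, 82.3 and 76.5 CPM in the saline mice and at 128, 112 and 100.2 CPM in the PD mice. The groups did not overlap, and the log2 fold change was 0.44 (SE 0.10, 95% interval 0.23 to 0.66, edgeR adjusted p = 0.00265) under TMM scaling, against -0.55 under endothelial scaling. Mlxip remained the main transcript of the pair. The ratio of Mlxip to Mlxipl CPM was 585, 357 and 231 in saline mice and 12.8, 11.3 and 9.62 in PD mice, and by FPKM the share of Mlxipl in their sum was 0.301 ± 0.134% and 8.89 ± 0.985%.

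Mlx (ENSMUSG00000017801, chr11:101087277-101092207, plus strand), the obligate partner of both factors, was at 59.4, 63.6 and 63.2 CPM in saline mice. In PD mice it was at 58.1, 56.9 and 55.9 CPM, each below the lowest saline mouse. The log2 fold change of -0.12 (SE 0.07, 95% interval -0.28 to 0.03) did not pass the test (edgeR adjusted p = 0.150). Mlx overlaps Psmc3ip on the other strand, which had 123 to 232 counts per library, and the strand setting of the counting was not given in the sources used here. Opposite-strand transcripts are also annotated over Txnip, Arrdc3, Mlxip and Mlxipl, without counts of their own, so the same limit applies there. Mlxip is also overlapped on its own strand by Gm42907, Gm42908 and Gm43813, likewise without counts of their own. A strand setting would not separate these.

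Thioredoxins are the small redox proteins that TXNIP binds. Txn1 (cytosolic thioredoxin, ENSMUSG00000028367, chr4:57943373-57956411, minus strand) was at 114, 121 and 109 CPM in the saline mice and at 97.2, 109 and 119 CPM in the PD mice. The groups overlapped, with a log2 fold change of -0.081 (SE 0.08, 95% interval -0.26 to 0.10, edgeR adjusted p = 0.417). Reads of its processed pseudogene, which has no row of its own in the table, could not be told apart from those of Txn1. The Txnip to Txn1 ratio per mouse, by FPKM, was 0.757, 0.680 and 0.734 in saline mice and 1.61, 1.25 and 1.04 in PD mice. This ratio does not depend on the scaling of the library, and it did not overlap between the groups (mean log2 difference 0.82). The cell type markers given above moved between the same groups, and their part in this ratio was not tested.

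Txn2 (mitochondrial thioredoxin, ENSMUSG00000005354, chr15:77915047-77929006, minus strand) was at 201, 214 and 206 CPM in the saline mice and at 173, 172 and 186 CPM in the PD mice. The groups did not overlap. The log2 fold change was -0.23 (SE 0.06, 95% interval -0.36 to -0.09, edgeR adjusted p = 0.00826), but the call was lost without PD fluid replicate 2 (-0.20, edgeR adjusted p = 0.0564), which leaves 1 of the 8 genes lower.

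Among 13 other genes of the thioredoxin system, 5 were higher in PD mice, 2 lower and 6 did not pass, with a median log2 fold change of 0.15, beside 31.1% higher and 27.8% lower of all genes. Under endothelial scaling 1 was higher and 11 lower, beside 8.15% and 72.5% of all genes. Srxn1, sulfiredoxin, which repairs overoxidised peroxiredoxins, was higher at 7.98 ± 0.908 and 24.0 ± 0.696 CPM (SD, n = 3), a log2 fold change of 1.59 (edgeR adjusted p = 1.09e-06), and 0.60 under endothelial scaling. Nxn, nucleoredoxin, was at 9.56 ± 1.95 and 16.4 ± 2.50 CPM (0.78, edgeR adjusted p = 0.00235, and -0.21 under endothelial scaling). Prdx3 (-0.41, edgeR adjusted p = 0.00149) and Txnrd2 (-0.30, edgeR adjusted p = 0.0387), a peroxiredoxin and a thioredoxin reductase of mitochondria, were lower. Prdx5, a peroxiredoxin also found in mitochondria and named after its values were seen, had a log2 fold change of 0.15 and did not pass (edgeR adjusted p = 0.0751). The call of Txnrd2 was lost with saline replicate 1 or any PD fluid replicate left out, which leaves 1 gene lower. Txnrd1, the cytosolic reductase that recharges Txn1, had a log2 fold change of 0.017 and did not pass.

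Of 23 known targets of the carbohydrate response factors, 17 were tested, and 11 were higher in PD mice, 1 lower and 5 not called, with a median log2 fold change of 0.57 (0.017 over all genes, of which 31.1% were higher and 27.8% lower). Under endothelial scaling 2 were higher and 10 lower, against 8.15% and 72.5% of all genes. Me1, malic enzyme, which supplies NADPH, was at 1.75 ± 0.251 and 5.63 ± 0.680 CPM (log2 fold change 1.69, edgeR adjusted p = 5.39e-05). Acly, ATP citrate lyase, was at 285 ± 24.4 and 341 ± 12.6 CPM (0.26, edgeR adjusted p = 0.00988, and -0.73 under endothelial scaling). The exception was Scd1, stearoyl-CoA desaturase, which was lower at 331 ± 11.97 and 192 ± 1.16 CPM (-0.78, edgeR adjusted p = 8.95e-07). Acinar, macrophage, B cell and other markers given above moved between the same groups. Their part in the values of these targets was not tested, and the list was chosen with earlier results of these data known.

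Of genes chosen after their values were seen, Klf10 (0.62), Thrsp (0.87) and Bhlhe40 (0.57), all regulators induced by carbohydrate in liver, were higher under TMM scaling and at -0.37, -0.13 and -0.42 under endothelial scaling. Pklr, liver pyruvate kinase and the classical ChREBP target, had too few reads to test. The same held for Slc2a2, Fgf21, Pnpla3, Gckr and G6pc. Without saline replicate 3 or PD fluid replicate 1, 2 targets rather than 1 were called lower. Of the 18 targets with a promoter entry, 0 held the spaced pair and 2 the E-box, beside 0.0555% and 8.09% of all genes with a promoter. Pairs of other orientation or spacing, and sites outside the promoter window, were not searched. The 0 therefore does not show that these targets lack a binding site.

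**Figure D5:**
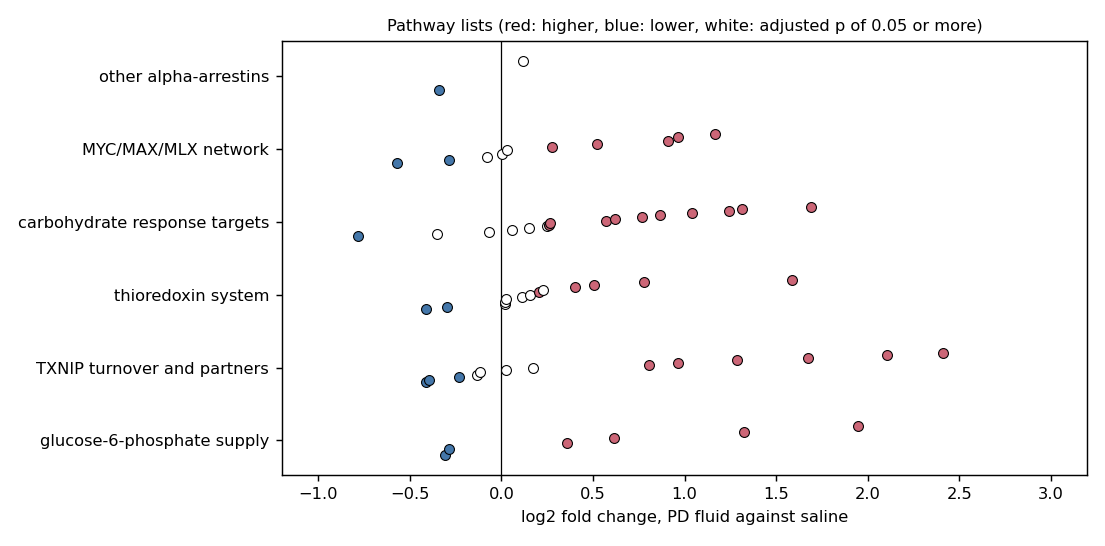
Log2 fold change under TMM scaling (x axis, PD mice against saline mice, 3 per group) of the tested genes in 6 pathway lists, except 1 target beyond the axis; red points were higher, blue lower and white not called at an adjusted p of 0.05. Of the carbohydrate response targets 11 of 17 were called higher under TMM, whereas under endothelial scaling 2 were.

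In the supply of glucose-6-phosphate, the signal that the factors read, 6 of 8 genes were tested, and 4 were higher and 2 lower (2 and 3 under endothelial scaling), with 31.1% and 27.8% of all genes (8.15% and 72.5%) as background. Slc2a1 (GLUT1, the main endothelial glucose transporter) was lower at 85.8 ± 0.963 and 70.4 ± 2.58 CPM (log2 fold change -0.29, edgeR adjusted p = 0.00339). Slc2a3 (GLUT3) was lower too (-0.31, edgeR adjusted p = 0.00754). Slc2a4 (GLUT4, the insulin-responsive transporter) was higher at 0.920 ± 0.581 and 3.62 ± 1.09 CPM (1.95, edgeR adjusted p = 0.00258). Hk3, a hexokinase of myeloid cells, was at 17.5 ± 2.27 and 44.0 ± 2.65 CPM (1.33, edgeR adjusted p = 2.29e-06). Under endothelial scaling Slc2a4 and Hk3 were the 2 genes still called higher, at 0.97 and 0.34. Leukocyte, B cell and other markers given above moved between the same groups. Their part in the values of Slc2a1, Slc2a3 and Slc2a4 was not tested.

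Of 13 genes for the turnover and partners of TXNIP, 6 were higher, 3 lower and 4 not called, with a median log2 fold change of 0.17, against 31.1% higher and 27.8% lower over all genes. With endothelial scaling 3 were higher and 7 lower, against 8.15% and 72.5%. Among the NLRP3 inflammasome genes, Il1b, which encodes interleukin-1 beta, was at 15.1 ± 1.25 and 80.6 ± 3.65 CPM (SD, n = 3), a log2 fold change of 2.41 (edgeR adjusted p = 3.72e-09). Nlrp3 was at 1.29 ± 0.472 and 5.63 ± 0.525 CPM (2.11, edgeR adjusted p = 4.99e-05), and both were also higher under endothelial scaling (1.42 and 1.12). The adaptor Pycard (-0.40, edgeR adjusted p = 0.00153) and the protease Casp1 (-0.41, edgeR adjusted p = 0.00167) were lower. Macrophage markers moved as given above and neutrophil markers were 17.4 to 20.7 and 205 to 218 CPM in sum, and their part in the values of Il1b, Nlrp3 and Hk3 was not tested. Itch, the ubiquitin ligase that marks TXNIP for degradation, did not pass the test (-0.11). Its listed relatives, named after their values were seen, did not move together under TMM scaling. Nedd4 (0.81) and Wwp1 (0.96) were higher under TMM scaling and at -0.19 and -0.026 under endothelial scaling. Under TMM scaling Wwp2 was lower (-0.23, edgeR adjusted p = 0.0113) and Nedd4l did not pass (-0.13). The list held 2 lower genes rather than 3 without saline replicate 1 or PD fluid replicate 2. It held 4 without saline replicate 2.

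Mlx and the Mondo proteins belong to a wider network around MAX and MYC, of which 10 other genes were tested, with 5 higher, 2 lower and 3 not called and a median log2 fold change of 0.15. The shares over all genes were 31.1% higher and 27.8% lower. Under endothelial scaling 0 were higher and 7 lower, where the shares were 8.15% and 72.5%. Mxd1, a repressor that pairs with MAX or MLX, was at 24.5 ± 0.664 and 54.8 ± 4.11 CPM (log2 fold change 1.16, edgeR adjusted p = 9.57e-07), and at 0.17 and no longer called under endothelial scaling. Mycn was at 0.97 (edgeR adjusted p = 0.0398) under TMM and -0.014 under endothelial scaling, on 10 to 36 counts per library. Its call was lost with DESeq2 (adjusted p = 0.118), without the filter on low counts (edgeR adjusted p = 0.0598) and when any mouse other than PD fluid replicate 3 was left out (edgeR adjusted p from 0.0616 to 0.142). The repressors Mxd3 (-0.57, edgeR adjusted p = 0.0342) and Mga (-0.28, edgeR adjusted p = 0.0227) were lower. The Mxd3 call was lost when any mouse other than PD fluid replicate 3 was left out (edgeR adjusted p from 0.0513 to 0.127) and with DESeq2 (adjusted p = 0.0608), and the Mga call without saline replicate 1 or PD fluid replicate 1. Myc itself had a log2 fold change of 0.0010 and did not pass. Mxd4, named after its values were seen and also a partner of MAX, was at 21.95 ± 0.465 and 26.6 ± 0.672 CPM (0.28, edgeR adjusted p = 0.0185, and -0.71 under endothelial scaling). Without PD fluid replicate 1, 2 of the network were higher and 0 lower, and without saline replicate 1, 0 were lower.

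To describe which transcripts followed the pattern of Txnip most closely, the root mean square difference of centred log2(CPM + 1) over the 6 libraries was taken across 9385 genes. The nearest were Adgrl2 (0.0320), Abca1 (0.0453), Slc2a6 (0.0567) and Slc29a3 (0.0584). Abca1 exports cholesterol, Slc2a6 is a hexose transporter and Slc29a3 a nucleoside transporter. Nearest to Arrdc4 were Gpr182 (0.0290), Kctd12 (0.0324), Rbpms (0.0431) and Jun (0.0455). Gpr182 is an endothelial receptor that binds chemokines, and Jun encodes a subunit of the AP-1 factor. All of these were higher under TMM scaling, by 0.68 to 0.95 on the log2 scale, and below 0 under endothelial scaling. Both follow from how the genes were chosen and from the shift of all genes under that scaling. The points share their libraries, so the values are a description.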

How the data were processed

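RNA was measured in 6 libraries, grouped as saline or PD fluid by the labels, with 3 mice each. The deposited table gives the authors' read counts per gene, without normalization, and the authors' FPKM values, alongside the authors' log2 ratio of group mean FPKM, p-values and FDR, which were not used. The submitters' processing notes name fastp 0.18.0, Bowtie2 2.2.8, HISAT2, StringTie 1.3.1 and RSEM, and the build is not given in the sources used here. Positions follow GENCODE M21 on GRCm38, to which 22128 identifiers matched, and promoter sequences are from RefSeq. Counts were filtered with edgeR's filterByExpr, scaled by TMM and tested with edgeR 4.0.16 (quasi-likelihood, R 4.3.3, no covariate, Benjamini-Hochberg over 14005 genes, threshold 0.05), where the study names limma. SE was derived from the F statistic, and 95% intervals from its degrees of freedom. The fit was tested on simulated data. There, 83 of 105 genes changed by 1 on the log2 scale were recovered, and 89 of 91 changed by 2. Among unchanged genes, 18 were called. Far fewer genes were changed there than were called in these data, so the simulation does not cover so broad a shift. Alternatives were limma-voom 3.58.1, DESeq2 1.42.0, other scalings, no filter, a replicate block and each mouse left out. The members and lists were chosen with earlier results of these data known. Named were all members, the 2 largest and 2 smallest called changes of each list (mean count 10 or more), and the 4 nearest genes to Txnip and Arrdc4 with a mean of at least 10 CPM. Of the genes this rule names, 1 is not reported here. Protein sequences were not used here.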

Additional observations from a re-analysis of the deposited data

How the results depend on the processing

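Under limma-voom, DESeq2, RLE size factors, no filter on low counts and the replicate block, the calls and directions of the 8 genes were those given above. Replicate numbers did not pair the mice (same-number correlations 0.105, 0.0406 and -0.173, and not every mouse correlated best with its own number). The replicate block called 4242 genes higher and 3667 lower of all genes, against 4359 and 3887. With the replicate block 1 thioredoxin system gene was lower, the calls of Mycn and Txnrd2 were lost, and no other call of a named gene changed. DESeq2 called 1 gene of the MYC/MAX/MLX network lower. The calls of Mycn and Mxd3 were also lost with DESeq2, and that of Mycn without the filter on low counts. Leaving out each mouse in turn gave 1 to 2 of the 8 genes lower, 2 to 5 network genes higher and 0 to 2 lower, 1 to 2 carbohydrate response targets lower, and 1 to 2 thioredoxin system genes lower. Scaling to endothelial markers moved most counts. It gave 1 of the 8 genes higher and 6 lower, 2 other alpha-arrestins lower, 0 network genes higher and 7 lower, 2 targets higher and 10 lower, 1 thioredoxin system gene higher and 11 lower, 3 genes of TXNIP turnover and partners higher and 7 lower, and 2 genes of glucose-6-phosphate supply higher. Log2 fold changes that it reversed were Txnip -0.25, Arrdc4 -0.065, Mlxip -0.55, Mycn -0.014, Mxd4 -0.71, Acly -0.73, Klf10 -0.37, Thrsp -0.13, Bhlhe40 -0.42, Nxn -0.21, Nedd4 -0.19, Wwp1 -0.026, Pecam1 -0.86, Adgrl2 -0.20, Abca1 -0.27, Slc2a6 -0.18, Slc29a3 -0.32, Gpr182 -0.042, Kctd12 -0.047, Rbpms -0.084 and Jun -0.080. These reversals follow the shift of the median of all genes by -0.99 that this scaling makes. The labels give no batch or date, so none was examined. Few counts limit Mlxipl in saline mice.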
